A study of Mus musculus with 6 samples.

Results

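The genes described here encode the ion-channel subunits of the AMPA and kainate glutamate receptors: Gria1, Gria2, Gria3 and Gria4 for AMPA receptors, and Grik1, Grik2, Grik3, Grik4 and Grik5 for kainate receptors. These 9 genes were chosen by name, through their Ensembl identifiers, among 32049 genes listed as targets in at least 1 condition. Together they accounted for 19 of 66637 predicted element-gene pairs in untreated cells and 16 of 71478 in treated cells. Of the 9 genes, 8 had at least 1 pair and Grik1 had none in either condition.

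The study asked whether interferon gamma (IFN-γ) alters the contacts between promoters and enhancers in oligodendrocyte precursor cells (OPCs), the dividing glial cells that give rise to myelinating oligodendrocytes. The cells came from brains of neonatal mice, labelled as strain C57BL/6j and genotype Sox10-Cre/RCE, in which Cre driven by Sox10 switches on EGFP in the oligodendrocyte lineage. Both groups share this genotype. OPCs were purified by sorting for the Sox10-driven GFP or on magnetic columns for CD140a, with several brains pooled, and were expanded in medium with PDGF-AA and bFGF. From 24 h after passaging, the control group (Ctr-OPC, 3 libraries) stayed in this medium, and the treated group (IFNg-OPC, 3 libraries) received it with 100 ng/mL IFN-γ. These are purified cells kept dividing in culture by growth factors, which limits them as a model of OPCs in the brain. Each library was a HiChIP for H3K27ac, an assay that captures chromatin contacts of regions bearing this mark of active enhancers and promoters. The deposited values are 1 table of predictions per condition with the 3 libraries pooled, so the values carry no error between replicates, no test between the groups could be run, and the depth is unknown. Each difference below is a difference between these 2 tables.

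AMPA receptors assemble as tetramers of GluA1 to GluA4 and carry fast excitatory currents, and the GluA2 subunit, once its RNA is edited, makes the channel nearly impermeable to calcium. Kainate receptors combine GluK1, GluK2 or GluK3, which form channels on their own, with the high-affinity subunits GluK4 and GluK5, which need one of the former. OPCs carry functional receptors of both kinds and receive glutamatergic synapses from neurons.

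The predictions rest on the activity-by-contact (ABC) model. Activity is a signal from ATAC-seq and H3K27ac at an element, contact is the HiChIP contact between element and promoter in bins of 5 kb, and the ABC score is the product of both divided by the gene's total over all elements around it. A score is therefore a share of its gene's total. Pairs with a score of at least 0.02 were deposited, and a pair above 0.05 is called a connection here. As the cells were measured in bulk, fewer cells with an active element and less signal per cell cannot be told apart.

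The markers listed for OPCs (Pdgfra among them) were present as targets for 6 of 6 genes in both conditions, with promoter activity quantiles (the rank of a gene's promoter activity among genes, from 0 to 1) of 0.851 to 0.982 in Ctr-OPC and 0.815 to 0.994 in IFNg-OPC. Marker genes of other cells were also listed: 3 of 5 microglial genes in Ctr-OPC and 5 of 5 in IFNg-OPC, with quantiles of 0.473 to 0.782 and 0.471 to 0.825, 2 of 3 astrocyte genes in both, 3 of 4 genes of maturing oligodendrocytes in both, and 4 of 4 neuronal genes in both, with quantiles of 0.644 to 0.870 and 0.681 to 0.868. Aif1 and Tmem119, which define microglia, were not listed in Ctr-OPC, and Aqp4, which defines astrocytes, was listed in neither. The part of such cells in the values below was not tested.

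The windows below show the DNA behind the elements that the results turn on. Each is the central 300 bases of an element, read 5′ to 3′ from the plus strand of RefSeq GRCm38.p6, the build of the tables (mm10), with matches to the motifs searched in capitals. They are the highest-scoring element of each receptor class, the elements with the largest rise and the largest fall in activity among the pairs matched between the tables, and, chosen after the values were seen, the element with the largest rise in contact, the connection of Gria2 and the treated-cell element with the most matches to the interferon-response motif. The first Gria3 window stands both for the highest AMPA score and for the largest rise in activity. It is the window of the Ctr-OPC element, while the highest AMPA score belongs to the overlapping element in IFNg-OPC.
Gria3, intron element with the highest AMPA score, chrX:41401839-41402138: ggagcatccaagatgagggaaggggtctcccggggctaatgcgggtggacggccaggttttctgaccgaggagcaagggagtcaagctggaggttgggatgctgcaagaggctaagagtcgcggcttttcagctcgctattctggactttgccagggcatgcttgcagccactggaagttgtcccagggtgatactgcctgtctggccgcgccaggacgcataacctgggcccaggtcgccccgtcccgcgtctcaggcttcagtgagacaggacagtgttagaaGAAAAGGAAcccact
Grik2, upstream element, chr10:49790318-49790617: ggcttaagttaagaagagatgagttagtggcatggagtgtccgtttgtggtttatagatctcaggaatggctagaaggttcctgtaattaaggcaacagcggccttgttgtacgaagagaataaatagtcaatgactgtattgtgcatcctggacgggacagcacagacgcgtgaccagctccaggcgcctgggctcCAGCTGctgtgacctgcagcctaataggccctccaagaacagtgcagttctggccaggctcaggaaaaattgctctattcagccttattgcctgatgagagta
Grik3, intron element with the largest fall in activity among the matched pairs, chr4:125535198-125535497: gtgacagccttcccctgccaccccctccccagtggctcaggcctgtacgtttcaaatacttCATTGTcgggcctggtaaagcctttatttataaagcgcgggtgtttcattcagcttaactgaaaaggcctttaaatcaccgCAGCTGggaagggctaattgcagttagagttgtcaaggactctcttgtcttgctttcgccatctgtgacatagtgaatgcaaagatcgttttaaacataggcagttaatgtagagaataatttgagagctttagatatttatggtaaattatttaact
Gria3, upstream element with the largest rise in contact, chrX:41392454-41392753: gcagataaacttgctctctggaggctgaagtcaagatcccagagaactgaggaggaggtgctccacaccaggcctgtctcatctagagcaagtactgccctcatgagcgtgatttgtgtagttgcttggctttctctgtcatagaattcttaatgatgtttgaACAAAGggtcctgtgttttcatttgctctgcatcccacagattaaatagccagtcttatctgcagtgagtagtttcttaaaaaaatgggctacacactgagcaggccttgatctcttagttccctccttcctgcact
Gria2, element of its connection, chr3:80800988-80801287: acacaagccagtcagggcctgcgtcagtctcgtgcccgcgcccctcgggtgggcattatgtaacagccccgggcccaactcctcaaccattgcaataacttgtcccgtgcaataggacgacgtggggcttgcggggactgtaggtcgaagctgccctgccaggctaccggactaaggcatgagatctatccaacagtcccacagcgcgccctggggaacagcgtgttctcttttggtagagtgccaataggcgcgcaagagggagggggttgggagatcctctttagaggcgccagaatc
Grik3, intron element listed in IFNg-OPC alone, chr4:125494589-125494888: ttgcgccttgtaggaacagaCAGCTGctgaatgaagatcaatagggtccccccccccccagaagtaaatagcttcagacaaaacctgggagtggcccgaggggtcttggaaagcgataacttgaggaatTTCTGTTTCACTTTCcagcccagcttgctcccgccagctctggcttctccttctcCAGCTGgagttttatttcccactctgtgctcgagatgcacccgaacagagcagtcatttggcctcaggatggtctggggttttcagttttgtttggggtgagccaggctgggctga

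The motifs were searched on both strands in the central 300 bases of all listed elements: GAAANNGAA, the core of the interferon-stimulated response element (ISRE), CAGCTG, an E-box of bHLH factors such as OLIG2, ACAAAG and ACAATG for SOX factors, and TGANTCA for AP-1. The Gria3 window carries 1 ISRE core, GAAAAGGAA, near its right edge. The element called in IFNg-OPC starts 12 bases further left, and its own central window ends within this match. The IFNg-OPC element, which has the highest AMPA score, thus counts as having no match. The Grik2 window holds 1 E-box. The falling Grik3 window holds 1 E-box and 1 SOX match (CATTGT, the reverse complement of ACAATG), the upstream Gria3 window 1 ACAAAG, and the Gria2 window no match. The Grik3 element listed in IFNg-OPC alone holds 2 overlapping ISRE cores, TTCTGTTTC and TTCACTTTC on the minus strand, and 2 E-boxes.

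Over all 19 elements of the genes in Ctr-OPC, the ISRE core was in 1 (8.17% of all 33083 elements), CAGCTG in 3 (26.3%), ACAAAG in 2 (27%), ACAATG in 1 (15.5%) and TGANTCA in 0 (9.14%). Over the 16 elements in IFNg-OPC, the ISRE core was in 1 (10.9% of all 35906), CAGCTG in 2 (25.6%), ACAAAG in 3 (29.0%), ACAATG in 3 (16.5%) and TGANTCA in 2 (10.8%). The median element of the subunit genes had 7 CpG dinucleotides in Ctr-OPC and 6.5 in IFNg-OPC, against 4 over all elements in both conditions. Its GC content was 50.7% and 54.0%, against 51.0% and 50.3%. The richest was the distal Grik4 element, with 27 CpG and 69.3% GC in Ctr-OPC.

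The genes with connections were Gria2, Gria3, Gria4, Grik2 and Grik5 in both conditions. In Ctr-OPC there were 8 connections, 5 of AMPA genes and 3 of kainate genes, and in IFNg-OPC 7, 4 and 3. Per gene, the counts went from 3 to 2 for Gria3 and were equal in both conditions for Gria2 (1), Gria4 (1), Grik2 (2) and Grik5 (1). Among all 12779 genes with a connection in either condition, 37.4% had more and 32.5% had fewer in IFNg-OPC. Gria1, Grik3 and Grik4 had pairs between 0.02 and 0.05 only.

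**Figure D1:**
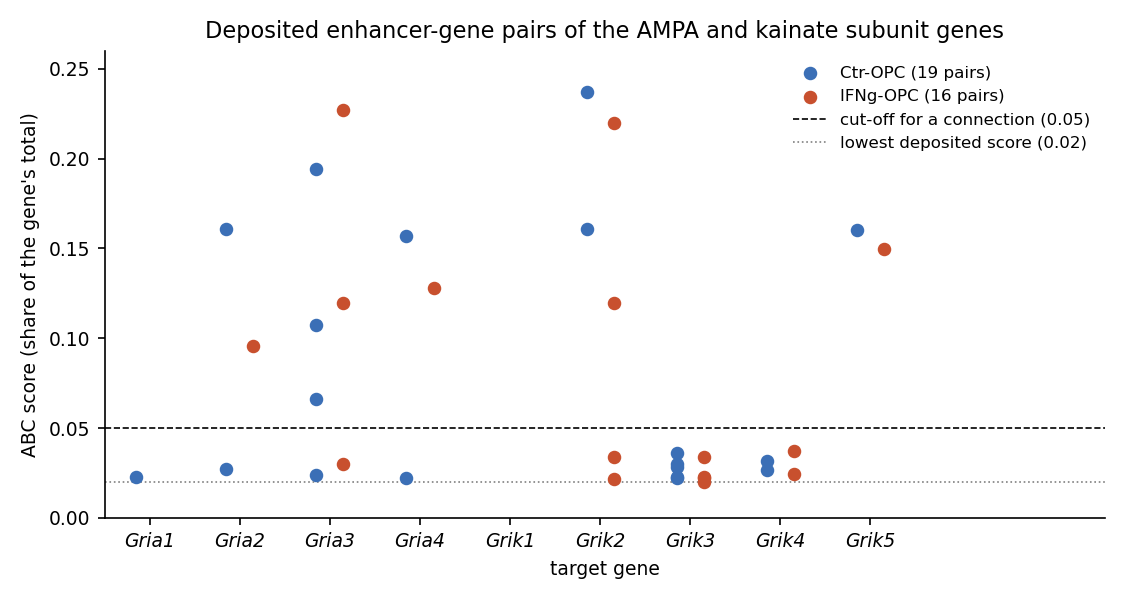
ABC score of each deposited pair of the 9 genes (vertical axis, share of the gene's total) by target gene, with Ctr-OPC in blue (19 pairs) and IFNg-OPC in red (16 pairs); the dashed line is the cut-off of 0.05 and the dotted line the lowest deposited score of 0.02. Gria2, Gria3, Gria4, Grik2 and Grik5 have points above the cut-off in both conditions, Gria1, Grik3 and Grik4 lie below it, and Grik1 has no point.

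All connections lay close to their genes, between 1.12 and 8.25 kb from the start site. Most connections of the series were also near, with 7593 of 11648 in Ctr-OPC and 8189 of 12410 in IFNg-OPC within 10 kb. The connections were also largely the same in both tables: 7 of 8 in Ctr-OPC overlapped a connection to the same gene in IFNg-OPC, and 7 of 7 in the reverse direction. Over all genes, 49.5% of the Ctr-OPC connections and 46.3% of the IFNg-OPC connections were shared, and within 10 kb of the start site 58.4% and 54.0%. With 8 and 7 connections, these shares rest on few pairs.

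**Figure D2:**
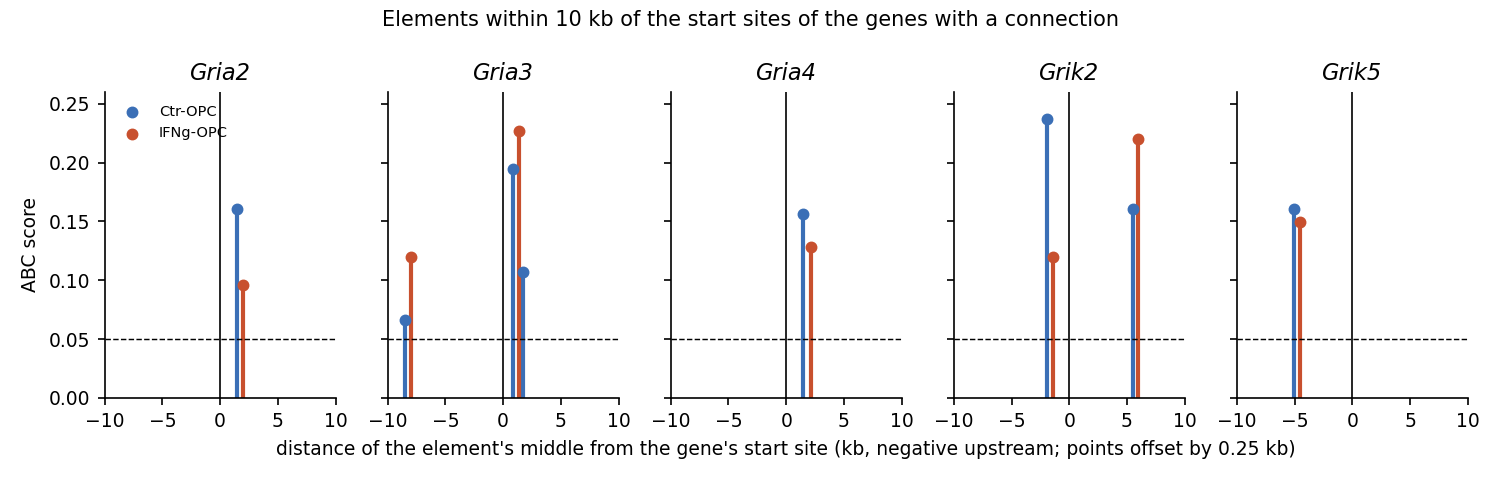
ABC score (vertical axis) against signed distance from the start site in kb (horizontal axis, negative upstream) for elements within 10 kb of the 5 genes with a connection, Ctr-OPC in blue and IFNg-OPC in red, each point moved sideways by 0.25 kb so that both can be seen. The order of the 2 Grik2 elements swaps between conditions, the upstream Gria3 element is higher in IFNg-OPC, and 1 Gria3 element is present in Ctr-OPC alone.

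Among the AMPA genes, Gria2 (ENSMUSG00000033981, encoding GluA2) had 1 connection, to an element at chr3:80800888-80801387, 1.70 kb inside the gene and over an exon of a noncoding transcript. Its score was 0.161 in Ctr-OPC and 0.0957 in IFNg-OPC. Activity there was 2.33 and 1.96, and adjusted contact 0.0370 and 0.0229. The score was thus 1.68-fold lower in IFNg-OPC, and of its components contact was 1.62-fold lower and activity 1.19-fold lower. With 5 kb bins counted from the chromosome start, this element and the Gria2 start site share a bin. Its contact is therefore a value within 1 bin and does not resolve the element from the promoter. The same holds for the Gria1 element, the Gria3 elements just inside the gene, the Grik3 element at 4.04 kb and the near Grik4 element. A second pair, with an intron element 18.3 kb inside Gria2 (score 0.0274, activity 1.11), was listed in Ctr-OPC alone. Gria2 had the highest promoter activity quantile of the listed subunit genes, 0.970 in Ctr-OPC and 0.952 in IFNg-OPC. All other targets of its connected element had scores below 0.05, Pdgfc and Glrb among them in Ctr-OPC.

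Gria3 (ENSMUSG00000001986, GluA3) had 3 connections in Ctr-OPC, the most of the 9 genes, and 2 in IFNg-OPC. Its leading element, at chrX:41401739-41402238 in an intron 1.13 kb from the start site, scored 0.194 in Ctr-OPC and 0.227 in IFNg-OPC, the highest AMPA value. Activity was 0.889 and 1.01, and adjusted contact 0.0481 and 0.0452. This was the largest rise in activity among the matched elements of the 9 genes, and it amounted to 1.14-fold. The intergenic element 8.25 kb upstream, chrX:41392354-41392853, went from a score of 0.0661 to 0.119. Its activity was nearly level, 1.18 and 1.23, and its adjusted contact was 1.58-fold higher, 0.0124 and 0.0196. For this element the neighbouring pseudogene Gm14577 scored higher than Gria3 in Ctr-OPC (0.107) and lower in IFNg-OPC (0.0642).

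The third Gria3 connection, at chrX:41402555-41403054, was listed in Ctr-OPC alone. It covers coding sequence and UTR next to the start of another annotated Gria3 transcript, 64 bp from the element's middle, and had a score of 0.107, an activity of 0.491 and the same contact as the leading element. No overlapping element was listed for any gene in IFNg-OPC. Its product of activity and contact in Ctr-OPC was 5.85 times the lowest product that could have been listed for Gria3 in IFNg-OPC. Beyond 50 kb, Gria3 had 1 pair per condition, with an element at 191 kb in Ctr-OPC (score 0.0239) and another at 172 kb in IFNg-OPC (0.0297). An element overlapping the former was still listed for another target in IFNg-OPC, with activity 0.573 against 0.922 in Ctr-OPC.

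Gria4 (ENSMUSG00000025892, GluA4) had 1 connection, to an intron element 1.74 kb from its start site at chr9:4794127-4794871. Its score was 0.157 in Ctr-OPC and 0.128 in IFNg-OPC. Activity was 1.01 and 0.762, and adjusted contact 0.0342 and 0.0274. The element was 745 bp wide in Ctr-OPC and 500 bp in IFNg-OPC, so the activities were taken over different widths. A pair at 116 kb (0.0221) was listed in Ctr-OPC alone. Gria1 (ENSMUSG00000020524, GluA1) had 1 pair, in Ctr-OPC, with an element over its UTR 1.88 kb from the start site (score 0.0226, activity 0.476). It was not listed in IFNg-OPC, which was also the case for 21.2% of all genes listed in Ctr-OPC. Its promoter activity quantile of 0.685 was the lowest of the 8 genes listed there.

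Among the kainate genes, Grik2 (ENSMUSG00000056073, GluK2) had 2 connections on either side of its start site, and their order swapped. The upstream element at chr10:49790218-49790717, 1.70 kb away and intergenic, scored 0.237 in Ctr-OPC, the highest value of the 9 genes, and 0.120 in IFNg-OPC. Its activity was 2.23 and 2.03, and its adjusted contact 0.0277 and 0.0157, so that contact was 1.77-fold lower and activity 1.10-fold lower. The element inside the gene at chr10:49782775-49783274, over coding sequence and UTR with another annotated Grik2 transcript starting 235 bp from its middle, scored 0.161 and 0.220. There, activity was 1.86 and 2.01, and adjusted contact 0.0224 and 0.0291, 1.30-fold higher. The summed scores of all listed Grik2 pairs were 39.8% of its total in Ctr-OPC and 39.5% in IFNg-OPC, the latter with 2 far pairs included.

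These far pairs, both in IFNg-OPC alone, joined Grik2 to an element at the distal end of the gene, 657 kb from the start site (score 0.0341), and to an intergenic element 411 kb upstream (0.0216). The start site of Gm48123, a transcript model that awaits experimental proof, lies 61 bp from that of Grik2, and its scores equalled those of Grik2 to 3 significant digits for all these elements. The pairs can therefore not be assigned to Grik2 alone.

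Grik5 (ENSMUSG00000003378, GluK5) had 1 connection, to an element 4.79 kb upstream at chr7:25076890-25077389. Its score was 0.160 in Ctr-OPC and 0.150 in IFNg-OPC. The element had the highest activity among all elements paired with the 9 genes, 7.02 in Ctr-OPC and 4.74 in IFNg-OPC, 1.48-fold lower. Adjusted contact was 0.0364 and 0.0441, 1.21-fold higher. The element covers a UTR of the neighbouring gene Zfp574, with a transcript of that gene starting 66 bp from its middle. Zfp574, a zinc-finger gene whose annotated start site is close to that of Grik5, had the same scores to 3 significant digits, and the element had 12 targets in Ctr-OPC and 8 in IFNg-OPC.

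Grik3 (ENSMUSG00000001985, GluK3) had 5 pairs in Ctr-OPC and 4 in IFNg-OPC, all with scores between 0.0202 and 0.0359. Only 2 pairs were matched in both tables, an intergenic element 3.68 kb upstream and an intron element 44.6 kb inside the gene. The upstream element had activity 1.91 in Ctr-OPC and 1.27 in IFNg-OPC, and the intron element 5.55 and 3.08, the largest fall among the matched pairs of the 9 genes at 1.80-fold. The latter was 858 bp wide in Ctr-OPC and 500 bp in IFNg-OPC. In Ctr-OPC alone there were pairs with intron elements at 4.91, 8.04 and 212 kb, and in IFNg-OPC alone with an intron element at 4.04 kb (score 0.0340, activity 1.55), the one with 2 ISRE cores shown above, and an upstream element at 4.86 kb (0.0219, 1.22). The products of the former were 1.33, 2.18 and 1.39 times the lowest that could have been listed for Grik3 in IFNg-OPC. Those of the latter were 1.40 and 0.903 times the lowest in Ctr-OPC. The pair at 4.86 kb would thus have gone unlisted in Ctr-OPC with the same product. An element overlapping that at 8.04 kb was still listed for other targets in IFNg-OPC, with activity 0.879 against 1.58 in Ctr-OPC.

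Grik4 (ENSMUSG00000032017, GluK4) had the same 2 intron elements in both conditions. The one 1.21 kb from the start site scored 0.0316 and 0.0370, with an activity of 1.13 in both. The one at 46.7 kb scored 0.0267 and 0.0244, with activities of 4.70 and 3.59. Grik4 combined the second-highest promoter activity quantile of the listed subunit genes, 0.968 in Ctr-OPC and 0.935 in IFNg-OPC, with no connection, and its listed pairs made up 5.83% and 6.14% of its total. Grik1 (ENSMUSG00000022935, GluK1) was not listed as a target in either condition, which says only that it missed the promoter or the score limit of the tables.

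Of the 11 matched pairs of the subunit genes, 7 had lower and 4 higher activity in IFNg-OPC, the latter including the near Grik4 element, which was level. The median log2 ratio of activity, IFNg-OPC over Ctr-OPC, was -0.25, against -0.09 over all 17223 matched elements, of which 58.6% were lower. Over the 9 elements of 500 bp in both tables it was -0.13, against -0.06 over all 8850 such elements, and after division by each table's median activity -0.14, against 0.02. At a threshold of 1.5-fold, 2 elements of these pairs were lower, both of Grik3, and 0 were higher, where 13.6% and 9.26% of all matched elements were. Of these 2, the upstream element lay just at the threshold, and the intron element was the one that differed in width between the tables. The elements of Gria3 at 191 kb and of Grik3 at 8.04 kb are not in this count, as their pairs with these genes were not listed in IFNg-OPC. Elements overlapping them had activities over 1.5-fold lower there, as given above. They were not matched to these, and the Ctr-OPC elements were 1108 and 1556 bp wide, so the widths may differ. Adjusted contact was lower in 5 pairs and higher in 6, with a median log2 ratio of 0.09 against 0.05 over all 29858 matched pairs. Past 1.5-fold were Gria2 and the upstream Grik2 element (lower) and the upstream Gria3 element (higher), where 8.33% of all pairs were lower and 12% higher. The same 3 pairs passed 1.5-fold in the score, 2 lower and 1 higher, beside 13.6% and 14.8% of all pairs. With no replicates, the spread that would arise between repeated tables of 1 condition is unknown.

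**Figure D3:**
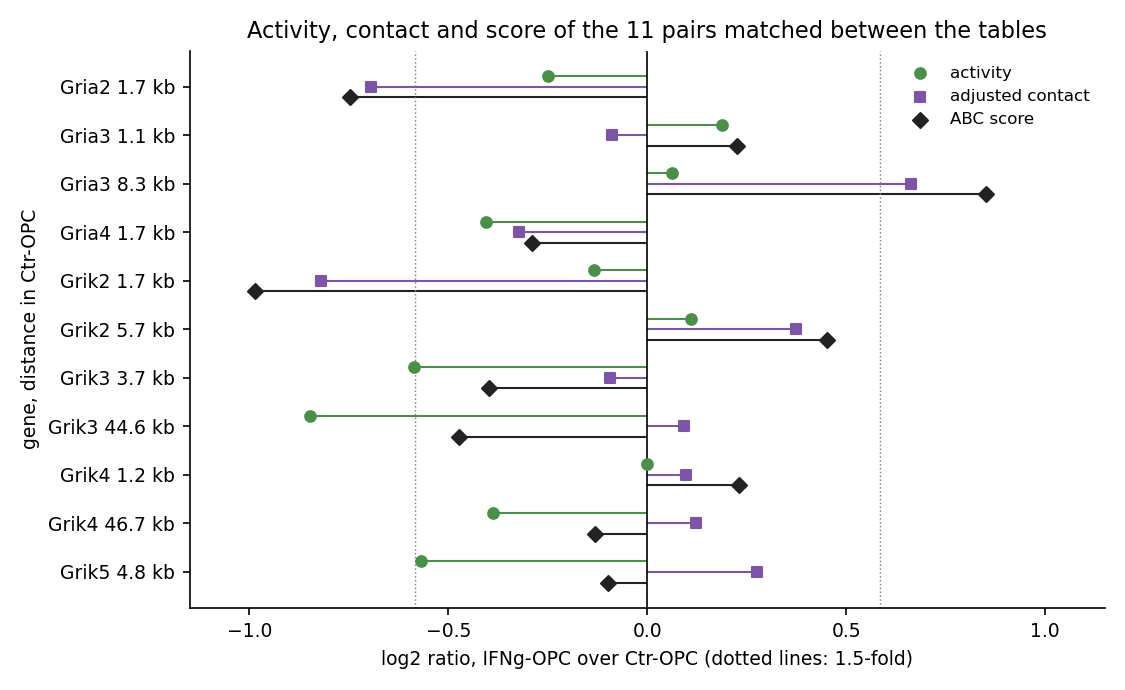
log2 ratio of IFNg-OPC over Ctr-OPC (horizontal axis) of element activity (green circles), adjusted contact (purple squares) and ABC score (black diamonds) for the 11 matched pairs, named by gene and distance from the start site; dotted lines mark 1.5-fold. For Gria2, the upstream Gria3 element and both Grik2 elements the contact ratio is the larger component, and for Grik3, the 46.7 kb Grik4 element and Grik5 it is activity. The Gria2 element and start site share a 5 kb bin, so this contact does not resolve the element from the promoter.

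The tables also hold the contact that a power law of distance gives. All 13 pairs within 10 kb in Ctr-OPC and all 11 in IFNg-OPC had adjusted contacts below it, as did nearly all near pairs of the series, with a median ratio to the power law of 0.292 and 0.245. Over all pairs within 10 kb the median ratios were 0.394 and 0.406, and 0.550% and 0.852% lay above the power law. The lowest ratios were 0.155 for the upstream Gria3 element in Ctr-OPC and 0.127 for the upstream Grik2 element in IFNg-OPC. Beyond 50 kb, 2 of 3 pairs in Ctr-OPC and 3 of 3 in IFNg-OPC lay above the power law, as did 60.7% and 68.1% of all such pairs. The pair below it was that of Gria4 at 116 kb, with a ratio of 0.813. Pairs scoring under 0.02 are not in the tables, so these shares hold for listed pairs only.

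**Figure D4:**
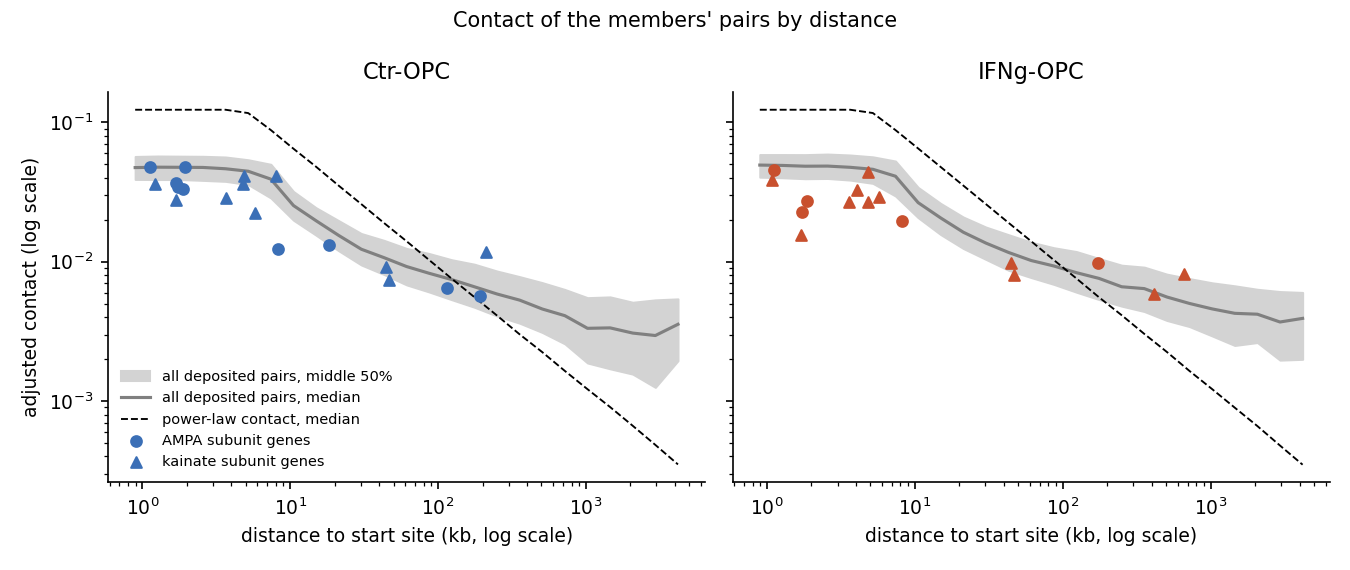
Adjusted contact (vertical, log scale) against distance to the start site in kb (horizontal, log scale) for the pairs of AMPA genes (circles) and kainate genes (triangles) in Ctr-OPC (left, 19 pairs) and IFNg-OPC (right, 16 pairs); the grey line and band are the median and the middle 50% of all deposited pairs and the dashed line is the median power-law contact. The near pairs of the genes lie under the dashed line, and most of the far pairs lie above it.

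The 6 far pairs of the 9 genes, 3 per condition, were each listed in 1 condition only. Over all genes, 26.2% of the Ctr-OPC pairs and 24.4% of the IFNg-OPC pairs beyond 50 kb were listed in the other table. Up to 50 kb, 11 of 16 pairs in Ctr-OPC and 11 of 13 in IFNg-OPC were listed in the other, where the shares over all genes were 55.5% and 52.1%. The scores of the far pairs, 0.0216 to 0.0341, were near the deposition limit.

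The gene total, the denominator of the score, sums activity times contact over all elements around a gene and was recovered for the 7 genes listed in both tables. It was 0.537 in Ctr-OPC and 0.468 in IFNg-OPC for Gria2, 0.220 and 0.202 for Gria3, and 0.221 and 0.163 for Gria4. For the kainate genes it was 0.260 and 0.266 for Grik2, 1.81 and 1.49 for Grik3, 1.29 and 1.18 for Grik4, and 1.60 and 1.39 for Grik5. Thus Grik3, Grik4 and Grik5 had higher totals than any AMPA gene listed in both tables. The total was lower in IFNg-OPC for 6 of the 7 genes, Grik2 being the exception, and 64.3% of all genes were lower.

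The median log2 ratio of the total was -0.19 over the 7 genes and -0.07 over all 20321 genes. None of the 7 differed by 1.5-fold, as 0.118% of all genes did downward and 0.615% upward. Gria4 had the lowest log2 ratio at -0.44, and 0.595% of all genes had one as low or lower. Grik3 followed with -0.28 (5.71% of genes as low or lower), then Gria2 and Grik5 (both close to -0.20), Grik4 and Gria3 (both close to -0.13) and Grik2 (0.03). Promoter activity quantiles of these genes were lower in IFNg-OPC for 4 and higher for 3, with Gria3 (0.775 to 0.731) moving furthest down and Grik2 (0.860 to 0.892) furthest up. Over all genes the median absolute difference of the quantile was 0.0321.

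**Figure D5:**
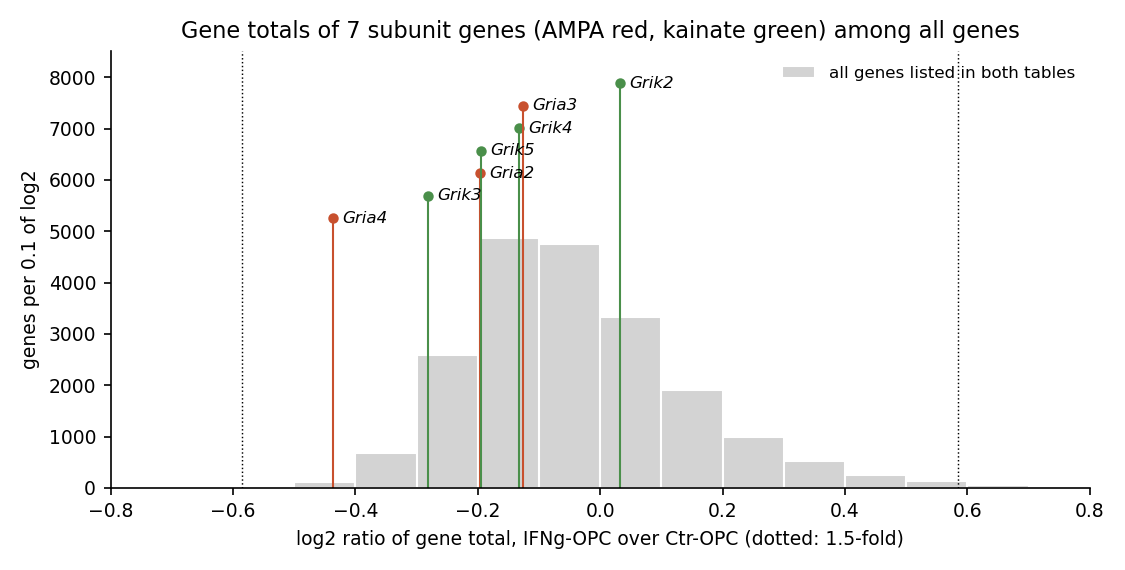
Number of genes (vertical axis, per 0.1 of log2) by log2 ratio of the gene total, IFNg-OPC over Ctr-OPC (horizontal axis), for all genes listed in both tables (grey) with the 7 subunit genes listed in both marked as lines (AMPA red, kainate green; heights only separate the names); dotted lines mark 1.5-fold. Gria4 lies in the lower tail at -0.44, and Grik2 is the only one of the 7 above 0.

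As the score is a share of the total, a change in both can cancel. For Gria4, activity, contact and total were all lower in IFNg-OPC, so its score differed by 1.22-fold while activity alone differed by 1.32-fold and contact by 1.25-fold. For Grik5 the activity of its element was lower, contact was higher, and the score and the total both differed by less than 1.5-fold.

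The other genes of glutamate signalling were taken as lists: NMDA receptor subunits, metabotropic receptors, AMPA and kainate auxiliary subunits, trafficking and scaffold proteins, glutamate transporters and the RNA-editing enzymes. Of these 42 genes, 35 were listed in at least 1 condition. They had 12 connections in Ctr-OPC and 18 in IFNg-OPC, and of the 16 genes with a connection in either condition 7 had more, 3 had fewer and 6 had as many in IFNg-OPC, beside 37.4% with more and 32.5% with fewer over all genes with a connection. With so few genes and no test, the counts per list are given as a description. Auxiliary subunits, which steer gating and trafficking of the AMPA and kainate channels, went from 4 connections to 2, as Neto1 (of kainate receptors) and Shisa7 each lost 1. The NMDA subunits went from 0 to 2, with 1 each for Grin2a and Grin2b. Metabotropic receptors went from 3 to 5, where Grm3 lost 1, Grm7 gained 1 and Grm8 gained 2, transporters went from 3 to 5, trafficking and scaffold genes from 2 to 3 (Grip2 gained 1) and editing enzymes from 0 to 1 (Adar). Among single genes, Slc1a3, the glial glutamate transporter GLAST, had 2 connections in Ctr-OPC and 4 in IFNg-OPC, and Grm8, a metabotropic receptor, had 0 and 2.

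Totals of the 25 listed glutamate genes with a value in both conditions were lower in IFNg-OPC for 18 and higher for 7, with a median log2 ratio of -0.08, near the 64.3% lower and the median of -0.07 over all genes, and none differed by 1.5-fold. The median was -0.06 over 6 auxiliary genes (6 lower), -0.22 over 5 trafficking and scaffold genes (5 lower) and 0.27 over 3 transporters (0 lower). Differences between the lists were not tested.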

How the data were processed

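The 6 H3K27ac HiChIP libraries were grouped by the treatment in their titles, and the deposited predictions are 1 table per condition over 3 pooled libraries. Per the study's methods, the authors aligned reads to mm10 and de-duplicated them with HiC-Pro, then combined the contacts in the ABC model with accessibility (ATAC-seq) and H3K27ac (CUT&RUN) measured under each condition. Element activity is a signal the authors derived from coverage. The ABC score is deposited as a fraction of the gene's total, and contact, adjusted contact, the product and the power-law score are deposited score values with no fixed range. How activity and contact were scaled between conditions is not given in the sources used here. A test of the tables found scores from 0.02 upward, no self-promoter pairs, and no target gene with a promoter quantile under 0.4. Depth is unknown, so no interval that needs it is given.

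Targets were named through GENCODE M21, which matched 99.7% of identifiers, and the tables' start sites were those of GENCODE for 99.6% of genes. The gene total was the product divided by the score. Pairs were matched when elements with the same target overlapped by at least 1 bp and were each other's best overlap, and a difference was counted at 1.5-fold. The tables cannot give p-values. The matching and the gene totals were checked on an altered copy of the Ctr-OPC values. In it all elements were shifted alike, some totals were raised and some pairs removed. The copy had no added noise and no change in element width. Python 3.11.15, pandas 2.3.3 and pysam 0.24.0 were used. Element annotation is that of GENCODE M21, and coordinates are 1-based.

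The members and the glutamate lists were chosen with earlier results of these data known. The text names the 9 genes, every element above 0.05, the best element of each gene without one, and those glutamate genes whose connections changed by at least 2 or whose total changed 1.5-fold. Neto1, Shisa7, Grin2a, Grin2b, Grm3, Grm7, Grip2 and Adar were named after their values were seen. A list of glutamate genes and a motif are not reported here. Alternatives were other cut-offs, the power-law score, a stricter overlap, centring on the median of all genes, pairs or elements, and, chosen after seeing the data, elements of equal width.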

Additional observations from a re-analysis of the deposited data

How the results depend on the processing

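No paired analysis was possible because each condition is 1 table of pooled libraries, and for the same reason no library could be left out. With all deposited pairs in place of scores above 0.05, the 9 genes had 19 pairs in Ctr-OPC and 16 in IFNg-OPC, and 62.9% of both lists together were shared, against 93.3% for connections. At a cut-off of 0.1 the share was 76.9%. Shares of pairs over all genes are given above by distance. Under the power-law score above 0.05, which leaves out measured contact, there were 11 connections in each condition. Only deposited pairs were counted, and these needed an ABC score of at least 0.02, so measured contact still decided which could enter. The change in connections differed from that given above for 5 genes over all pairs, for 2 genes at a cut-off of 0.1 and for 2 under the power-law score. Gria3 was the only gene with a change at 0.05, and it did not reverse. Grik3, with no change at 0.05, had 1 pair fewer in IFNg-OPC over all pairs and 2 connections more under the power-law score. The net change of Gria3 was 1 fewer with all pairs, where 2 were lost and 1 was gained, and with the power law, and at 0.1 Gria3 had no change and Gria2 lost 1.

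The median log2 ratio of the gene total was -0.19, and -0.13 less the median over all genes. The median for activity was -0.25, and -0.14 after division by each table's median. Over the 9 elements of 500 bp in both tables, chosen after seeing the data, it was -0.13, with 5 of 9 lower. The median for adjusted contact was 0.09, and 0.0400 less the median over all matched pairs. A reciprocal overlap of at least 50% left the matched values as they were. The cause of these shifts was not tested, apart from the centring itself. Elements of 500 bp made up 51.7% of all elements in Ctr-OPC and 61.4% in IFNg-OPC, so widths differ between the tables.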
